A study of Mus musculus with 20 samples.

Results

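Small nucleolar RNAs (snoRNAs) were measured in the dorsal striatum of 20 mice on Affymetrix Mouse Gene 2.0 ST arrays. The RNAs described here are the rows of the deposited table whose annotation names a single gene with a symbol that starts with Snord or Snora and a digit, or with Scarna. Of 41345 transcript clusters, 81 met this rule, and for the 3 genes with a second row the row with the larger interquartile range was kept. This left 78 RNAs among 22180 genes in all: 47 C/D box RNAs (Snord), 26 H/ACA box RNAs (Snora) and 5 small Cajal body RNAs (Scarna2, Scarna6, Scarna8, Scarna10 and Scarna17). A further 46 rows name such an RNA together with another gene and were not used here.

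Mice were compared in 4 groups of 5, all labelled 12 months old and kept on a C57B6/J background. ASO mice carry a transgene for human wild-type α-synuclein under the PDGF-β promoter (line D), and WT mice are their littermates. The ASO-NSC and WT-NSC mice had received GFP-expressing neural stem cells, grown from the hippocampus and cortex of newborn mice, by injection into the striatum, and the ASO-Veh and WT-Veh mice had received saline in the same place. Litters 3, 4 and 6 supplied the NSC mice and litters 1, 3 and 5 the vehicle mice, so that only litter 3 held both treatments: it gave ASO-Veh mice 46 and 47 and WT-NSC mouse 53.

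SnoRNAs are short RNAs of the nucleolus that base pair with other RNAs and direct their chemical modification. C/D box RNAs are bound by fibrillarin, Nop56, Nop58 and Snu13 and guide 2′-O-methylation, and H/ACA box RNAs are bound by dyskerin, Nhp2, Nop10 and Gar1 and guide the conversion of uridine to pseudouridine, mostly in ribosomal RNA. A few, among them the C/D box RNAs U8, U13 and U22 and the H/ACA RNA U17, have been linked to the processing of the ribosomal RNA precursor. Small Cajal body RNAs use the same boxes and act on spliceosomal RNAs. In mammals most snoRNAs are cut out of the introns of host genes, many of which encode ribosomal proteins or are long non-coding RNAs, so that the level of a snoRNA depends on transcription of the host and on the processing of the intron.

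Values are log2 intensities after robust multiarray analysis (RMA), and a difference of 1 is a factor of 2. Each probe set has its own brightness, so that a value can be set against the same RNA in other mice but not against another RNA. The probes cannot tell the mature RNA from the unspliced host transcript, and the total RNA had passed a silica column, a step that keeps RNAs of this length poorly. In tissue, fewer cells that hold an RNA and less of it per cell cannot be told apart. Array medians lay between 6.17 and 6.28, the lowest mean correlation of any array with the remaining 19 was 0.982, none duplicated another, and RNA integrity numbers ran from 9.2 to 9.7. Sex-linked genes differed from the labelled sex in 5 arrays (ASO-Veh mice 45 and 47, WT-NSC mouse 54, WT-Veh mice 61 and 62). The pan-neuronal markers averaged 11.2 to 11.4 in every mouse and the measured markers of striatal spiny neurons, Penk and Pdyn among them, 9.81 to 10.9. Within a group, values per mouse are given in the order of mice 73, 75, 56, 57 and 59 for ASO-NSC, 42, 45, 46, 47 and 68 for ASO-Veh, 53, 70, 74, 54 and 58 for WT-NSC, and 61, 62, 64, 66 and 67 for WT-Veh.

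All 78 RNAs matched the RefSeq annotation of GRCm38.p6, which gives them a length of 48 to 221 nt in the C/D class (median 68), 56 to 205 nt in the H/ACA class (median 118.5) and 61 to 248 nt for the Scarna genes. By position, on either strand, 73 of the 78 lie inside another gene, and Scarna2, Snord13, Snord89, Snord104 and Snord118 lie in none. There were 59 host genes. Ribosomal protein genes made up 16 of them and held 18 RNAs, and 9 were Snhg genes or Gas5, non-coding hosts that held 13. Others encode proteins that act in the nucleolus or on snoRNAs themselves, such as Ncl (nucleolin, host of Snora75 and Snord82), Nop56 (Snord110) and Nop58 (Snord11 and Snord70), and Snora35 lies in Htr2c, the gene of a serotonin receptor. A total of 11 hosts held more than 1 of the RNAs, 25 RNAs in all, and 6 RNAs lie within 2 genes at once, of which a measured one, or else the shorter, was taken as host.

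Host genes of snoRNAs are known for transcripts that start with a cytosine and a run of pyrimidines, as ribosomal protein messages do. Start sites of hosts are shown here, and RNAs within the same host share its start. RefSeq (GRCm38.p6) gave a start for 46 of the 59 hosts. The letters CTTTC, searched as read on the strand of the gene and not on the other strand, from 10 bases before to 20 bases from the start, occurred at 7 of these hosts (15.2%), against 1197 of 27025 genes in all (4.43%). The letters were chosen after the sequences had been seen, so that the higher share at the hosts is a description and not a test. The windows of 3 hosts are given 5′ to 3′ with CTTTC in capitals, and the eleventh base is the annotated first base of the transcript.
Snhg12 (host of Snora16a, Snora44, Snora61 and Snord99), chr4:132308668-132308697, plus strand: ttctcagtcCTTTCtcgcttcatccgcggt
2410006H16Rik (host of Snord49a, Snord49b and Snord65), chr11:62602867-62602896, plus strand: cgccgtCTTTCtctgcggccatcatgggat
Snhg9 (host of Snora78), chr17:24719946-24719975, minus strand: aCTTTCcctcgccgaagccgcgccctacac
The annotated first base is the second of the capitals in Snhg12 and the last of them in 2410006H16Rik, and in Snhg9 the capitals lie before it.

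Mean signals over the 20 mice lay between 3.00 and 11.24 in the C/D class (median of 6.72), between 4.61 and 10.20 in the H/ACA class (median of 7.37) and between 5.56 and 10.08 among the Scarna genes. A mean under 5 was found for 9 C/D and 1 H/ACA RNAs, 12.8% of all 78 and 20.9% of all genes. The SD over the 20 mice had a median of 0.26 for the 78 RNAs, 0.21 for 483 microRNA genes and 0.145 for all genes. Largest were the SDs of Snora15 (0.89), Snora34 (0.64), Snora16a (0.64), Snora69 (0.61) and Snora73b (0.53) in the H/ACA class, and of Snord99 (0.65), Snord104 (0.60), Snord35b (0.57), Snord73b (0.53) and Snord13 (0.53) in the C/D class.

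The spread was widest among the WT-Veh mice. For the H/ACA class the median SD within a group was 0.20 in ASO-NSC, 0.24 in ASO-Veh, 0.16 in WT-NSC and 0.45 in WT-Veh mice. For the C/D class it was 0.18 in ASO-NSC, 0.23 in ASO-Veh, 0.21 in WT-NSC and 0.29 in WT-Veh mice. WT-Veh was the group with the largest SD for 51 of the 78 RNAs (65.4%) and for 33.9% of all genes. Within WT-Veh, mouse 67 held the highest value of 48 RNAs (61.5%, with 22.7% of all genes) and mouse 62 the lowest of 40 (51.3%, with 20.4% of all genes). Mouse 67 was above the 20-mouse mean for 71 of 78 RNAs and mouse 64 for 60, whereas mice 62 and 66 were above it for 16 each and mouse 61 for 27. Outside this group the count ran from 23 in ASO-Veh mouse 45 to 63 in ASO-Veh mouse 46.

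The median deviation of the C/D class from each RNA's own mean was -0.051, 0.01, -0.095, -0.035 and -0.053 in ASO-NSC mice, 0.028, -0.032, 0.205, -0.08 and -0.056 in ASO-Veh mice, -0.068, 0.059, 0.043, 0.097 and 0.064 in WT-NSC mice, and -0.038, -0.258, 0.183, -0.336 and 0.334 in WT-Veh mice. For the H/ACA class it was 0.025, 0.076, 0.245, -0.023 and -0.164 in ASO-NSC mice, -0.074, -0.089, 0.278, -0.035 and 0.024 in ASO-Veh mice, -0.037, 0.014, 0.12, 0.056 and -0.005 in WT-NSC mice, and -0.292, -0.462, 0.157, -0.474 and 0.271 in WT-Veh mice. In each WT-Veh mouse both classes lay on the same side of 0, below it in mice 61, 62 and 66 and above it in mice 64 and 67, whereas ASO-NSC mouse 56 was high in the H/ACA and low in the C/D class. In the same 5 WT-Veh mice the median deviation of the measured hosts was -0.02, -0.09, 0.01, -0.04 and 0.09, and that of all genes stayed between -0.006 and 0.009. After subtraction of group means, the r of an RNA with the median of all other RNAs had a median of 0.754 in the H/ACA and 0.549 in the C/D class. A count of RNAs in a class is therefore not a count of independent values.

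**Figure D1:**
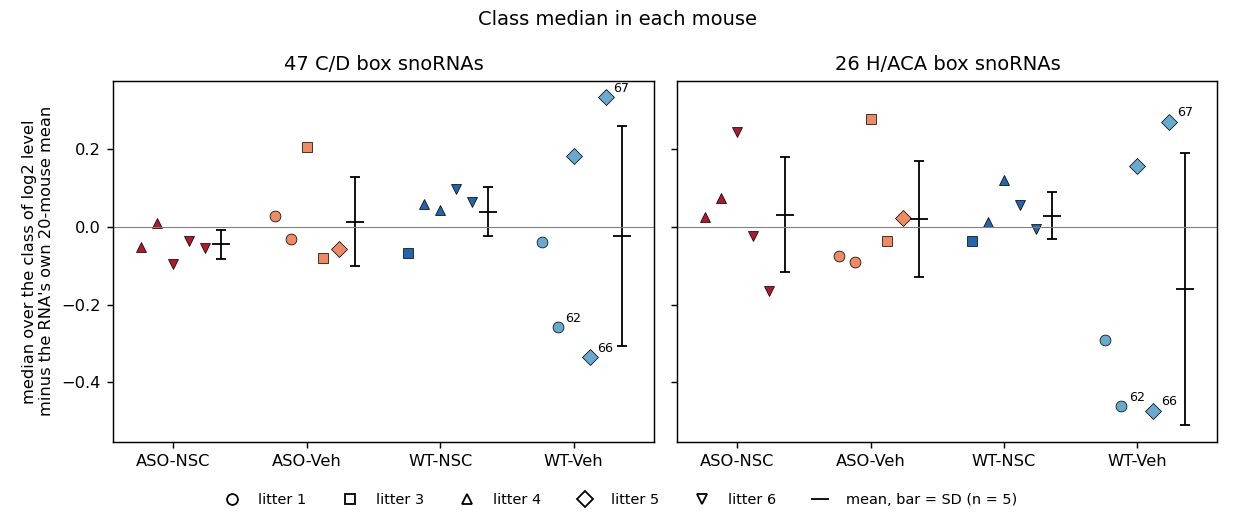
Median over the 47 C/D box RNAs (left) and the 26 H/ACA box RNAs (right) of the log2 level minus the RNA's own mean over 20 mice, 1 point per mouse, with symbols for litters and mean and SD at the right of each group (n = 5). WT-Veh mice 62 and 66 lie lowest in both classes, at -0.258 and -0.336 for C/D and -0.462 and -0.474 for H/ACA, and WT-Veh mouse 67 is highest in the C/D class at 0.334.

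**Figure D2:**
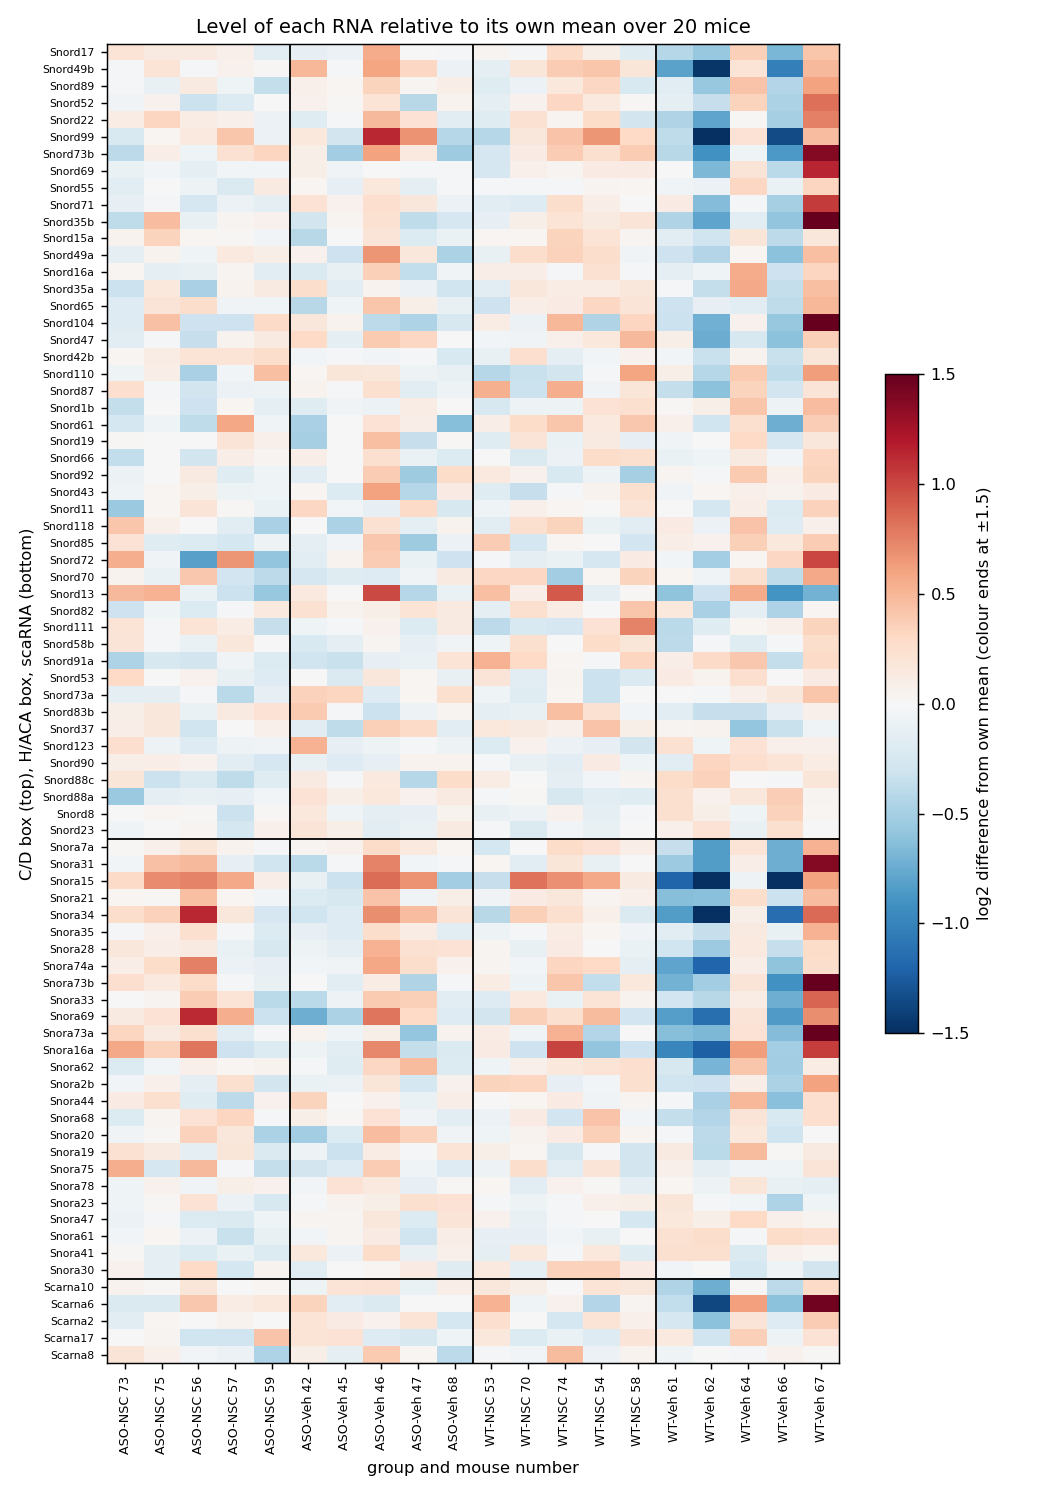
Each of the 78 RNAs (rows, by class, sorted by how closely they follow the median of the others) in each of the 20 mice (columns, by group), as the log2 difference from its own mean over the 20 mice. Red is above and blue below the mean, and the columns of WT-Veh mice 62 and 66 are blue and that of mouse 67 red for most RNAs, except at the foot of each class, where Snord8, Snord23 and Snord88a stay flat or run the other way.

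Among the H/ACA RNAs, Snora15 varied most. Its host Cct6a encodes a subunit of the chaperonin that folds actin and tubulin. Snora15 was at 8.496, 8.92, 8.96, 8.78 and 8.31 in ASO-NSC mice, 8.11, 7.89, 9.05, 8.89 and 7.69 in ASO-Veh mice, 7.86, 9.02, 8.89, 8.79 and 8.34 in WT-NSC mice, and 7.02, 5.83, 8.14, 6.46 and 8.81 in WT-Veh mice. WT-Veh mice 61, 62 and 66 lay below all 15 mice of the other groups, whereas mice 64 and 67 lay among them. The fitted difference was 1.31 ± 0.44 (SE, adjusted p = 0.203) for WT-NSC minus WT-Veh, 1.06 ± 0.44 (SE, adjusted p = 0.985) for ASO-Veh minus WT-Veh and 0.47 ± 0.46 (SE, adjusted p = 0.761) for ASO-NSC minus ASO-Veh in limma with Benjamini-Hochberg adjustment. With a term for litter in the fit, which then rests on litter 3, the sign turned to -0.15 for WT-NSC minus WT-Veh. Its host stayed between 5.46 and 6.46, with 5.90, 5.64, 6.22, 5.81 and 6.46 in WT-Veh mice.

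Snora34, which with Snora2b lies in Kansl2, a gene of a histone acetyltransferase complex, was at 9.32, 9.41, 10.19, 9.23 and 8.81 in ASO-NSC mice, 8.76, 8.87, 9.76, 9.52 and 9.25 in ASO-Veh mice, 8.65, 9.42, 9.31, 9.14 and 8.84 in WT-NSC mice, and 8.22, 7.54, 9.15, 7.92 and 9.91 in WT-Veh mice. The same WT-Veh mice were low, and ASO-NSC mouse 56 was the highest of all. Snora2b of the same gene spanned 4.89 to 5.96, with WT-Veh mouse 66 at the low and mouse 67 at the high end. Snora69, in the ribosomal protein gene Rpl39, was at 7.43, 7.51, 8.41, 7.84 and 6.97 in ASO-NSC mice, 6.56, 6.81, 8.10, 7.59 and 7.10 in ASO-Veh mice, 7.02, 7.65, 7.54, 7.76 and 7.01 in WT-NSC mice, and 6.46, 6.16, 7.48, 6.44 and 7.99 in WT-Veh mice. Here too WT-Veh mice 61, 62 and 66 were the lowest of all 20, with ASO-Veh mouse 42 next. Snora74a, the U19 RNA, lies in the non-coding gene Snhg4 and was at 8.10, 8.27, 8.75, 7.91 and 7.87 in ASO-NSC mice, 7.96, 7.94, 8.58, 8.26 and 8.06 in ASO-Veh mice, 8.04, 7.96, 8.32, 8.29 and 7.86 in WT-NSC mice, and 7.20, 6.80, 8.09, 7.40 and 8.26 in WT-Veh mice. WT-Veh mice 61, 62 and 66 lay below every other mouse, and its fitted difference was 0.60 ± 0.23 (SE, adjusted p = 0.985) for ASO-Veh minus WT-Veh and 0.70 ± 0.24 (SE, adjusted p = 0.257) for ASO-NSC minus WT-Veh.

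The U17 RNAs Snora73a and Snora73b, which take part in cutting the ribosomal RNA precursor on the way to 18S rRNA, lie side by side in Snhg3. Snora73b was at 8.87, 8.77, 8.90, 8.59 and 8.51 in ASO-NSC mice, 8.61, 8.46, 8.73, 8.17 and 8.61 in ASO-Veh mice, 8.73, 8.54, 9.04, 8.25 and 8.78 in WT-NSC mice, and 7.91, 8.09, 8.81, 7.71 and 10.30 in WT-Veh mice. WT-Veh mouse 67 stood far above the next highest, WT-NSC mouse 74, and Snora73a also was highest in mouse 67, with 7.61, 7.56, 8.46, 7.60 and 9.77 in WT-Veh mice. The RNAs are near copies of each other, so that probes for one may also read the other. Snora31, in Tpt1, was between 6.94 and 8.09 in the 15 mice of the other groups, against 6.80, 6.51, 7.45, 6.61 and 8.72 in WT-Veh mice. Snora7a (Rpl32), Snora35 (Htr2c), Snora33 (Rps12) and Snora62 (Rpsa) were also higher in WT-Veh mice 64 and 67 than in WT-Veh mice 61, 62 and 66. By contrast Snora78, Snora47, Snora41, Snora23 and Snora61 had SDs of 0.11 to 0.17 over the 20 mice.

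In the C/D class Snord104, which lies in no other gene, was at 9.75, 10.38, 9.63, 9.63 and 10.22 in ASO-NSC mice, 10.11, 9.995, 9.55, 9.48 and 9.70 in ASO-Veh mice, 10.06, 9.85, 10.44, 9.49 and 10.26 in WT-NSC mice, and 9.62, 9.22, 10.001, 9.38 and 12.03 in WT-Veh mice. WT-Veh mouse 67 stood alone above every other mouse, and the remaining mice overlapped between groups. Snord35b was at 6.23, 7.08, 6.51, 6.66 and 6.69 in ASO-NSC mice, 6.35, 6.66, 6.85, 6.24 and 6.36 in ASO-Veh mice, 6.50, 6.71, 6.83, 6.76 and 6.82 in WT-NSC mice, and 6.17, 5.83, 6.47, 6.03 and 8.65 in WT-Veh mice. Again mouse 67 was the highest, while the other 4 WT-Veh mice had values of 5.83 to 6.47. Snord49b, 1 of 3 RNAs in 2410006H16Rik, was at 10.33, 10.55, 10.33, 10.41 and 10.36 in ASO-NSC mice, 10.84, 10.31, 10.93, 10.66 and 10.26 in ASO-Veh mice, 10.20, 10.52, 10.72, 10.75 and 10.52 in WT-NSC mice, and 9.53, 8.89, 10.55, 9.32 and 10.83 in WT-Veh mice. In this RNA the low WT-Veh mice stood apart, at 8.89 to 9.53 in mice 61, 62 and 66, and all 17 other mice were at 10.20 or more. Snord99, in Snhg12, was highest in ASO-Veh mouse 46, at 10.34, and lowest in WT-Veh mice 62 and 66, at 7.61 and 7.88. Snord73b, in Rps3a1, was at 7.75, 7.26, 8.10, 7.31 and 9.54 in WT-Veh mice, and its neighbour in the same gene, Snord73a, at 5.15, 5.13, 5.23, 5.31 and 5.56.

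**Figure D3:**
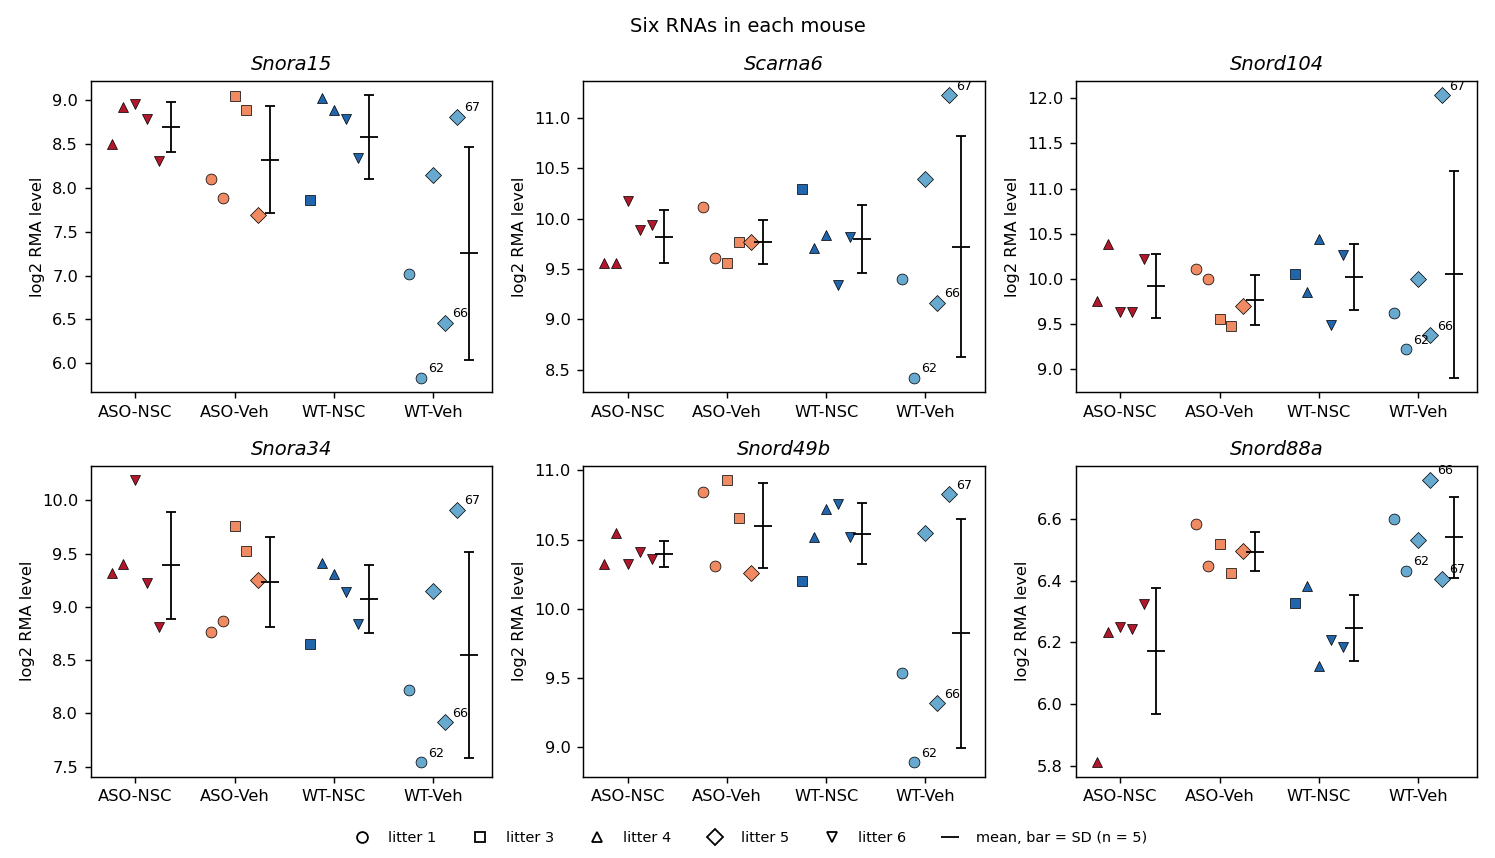
Log2 level of Snora15, Scarna6, Snord104, Snora34, Snord49b and Snord88a in each mouse, with symbols for litters and mean and SD at the right of each group (n = 5); the axes differ and do not start at 0. For all but Snord88a the WT-Veh mice spread widest, Snora15 between 5.83 and 8.81, and for Snord88a the 10 NSC mice (5.81 to 6.38) lie below the 10 vehicle mice (6.41 to 6.73).

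The C/D RNAs linked to the processing of the ribosomal RNA precursor did not move as one. Snord13 (U13), used on the way to 18S rRNA, was at 7.62, 7.66, 7.04, 6.81 and 6.57 in ASO-NSC mice, 7.28, 7.13, 8.13, 6.71 and 7.04 in ASO-Veh mice, 7.59, 7.23, 8.05, 6.99 and 7.15 in WT-NSC mice, and 6.54, 6.83, 7.69, 6.24 and 6.43 in WT-Veh mice. It was low in WT-Veh mouse 67, at 6.43, where most other RNAs were high, and highest in ASO-Veh mouse 46 and WT-NSC mouse 74. Its difference was 0.67 ± 0.29 (SE, adjusted p = 0.321) for WT-NSC minus WT-Veh and 0.02 ± 0.30 (SE, adjusted p = 0.988) for ASO-NSC minus ASO-Veh. Snord118 (U8), needed for 28S and 5.8S rRNA, was between 5.905 and 6.82 in all mice, with group means of 6.36 ± 0.33 in ASO-NSC, 6.32 ± 0.27 in ASO-Veh, 6.41 ± 0.24 in WT-NSC and 6.46 ± 0.24 in WT-Veh mice (SD, n = 5). Snord22 (U22), in Snhg1, followed the main pattern, between 6.41 and 7.16 in the mice of the other groups, against 6.23, 5.89, 6.69, 6.19 and 7.44 in WT-Veh mice. Neither these nor the U17 RNAs passed the threshold in any comparison.

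Snord88a was lower in every NSC mouse than in every vehicle mouse. It lies in 2410002F23Rik together with Snord88c and was at 5.81, 6.23, 6.25, 6.24 and 6.32 in ASO-NSC mice, 6.59, 6.45, 6.52, 6.43 and 6.50 in ASO-Veh mice, 6.33, 6.38, 6.12, 6.21 and 6.19 in WT-NSC mice, and 6.601, 6.43, 6.53, 6.73 and 6.41 in WT-Veh mice. The difference was -0.36 ± 0.09 (SE, adjusted p = 0.321) in ASO mice and -0.29 ± 0.09 (SE, adjusted p = 0.158) in WT mice, neither past the threshold over all genes, and with litter added to the fit as a fixed term it came to -0.25 (ASO) and -0.20 (WT). In litter 3, which alone held both treatments, WT-NSC mouse 53 was at 6.33 and ASO-Veh mice 46 and 47 were at 6.52 and 6.43. Among all genes, 0.658% were lower without overlap in 5 ASO-NSC against 5 ASO-Veh mice and 1.03% in 5 WT-NSC against 5 WT-Veh mice, and Snord88a was the only 1 of the 78 RNAs in either set. A count of 1 in each genotype is close to what these shares give for 78 RNAs. The share of all genes that separate all NSC from all vehicle mice, as Snord88a did, was not computed. Snord42b (ASO mice, 2.51% of all genes) and Snord37 (WT mice, 1.24%) were the only RNAs higher in NSC than in vehicle mice without overlap. Snord88c, its neighbour, had a difference of -0.21 ± 0.13 (SE, adjusted p = 0.640) in ASO mice and -0.16 ± 0.12 (SE, adjusted p = 0.582) in WT mice, and 2410002F23Rik itself had -0.06 ± 0.06 (SE, adjusted p = 0.779) and -0.09 ± 0.06 (SE, adjusted p = 0.50).

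Markers of other cells were read over the same comparisons. In NSC minus vehicle, 6 of 6 astrocyte, 6 of 6 microglia, 5 of 5 oligodendrocyte and 4 of 4 choroid plexus markers had differences above 0 in both genotypes, with medians of 0.15, 0.145, 0.13 and 0.28 in ASO mice and of 0.18, 0.19, 0.19 and 0.21 in WT mice. Among all genes, 51.2% were above 0 in ASO and 50.4% in WT mice. Stem or progenitor markers were above 0 in 6 of 7 in both, with medians of 0.14 (ASO) and 0.23 (WT). Spiny neuron markers were above 0 in 0 of 5 in ASO mice (median -0.16) and 2 of 5 in WT mice (median -0.03), and cortical markers in 0 of 4 in ASO mice (median -0.17) and 4 of 4 in WT mice (median 0.20). Of all these markers 1 passed the threshold, Gfap of the astrocytes in WT mice, at 0.74 (with 0.433% of all genes). The part of these shifts in the differences of Snord88a and the other RNAs was not tested.

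Of the small Cajal body RNAs, Scarna6, in the autophagy gene Atg16l1, varied most and was at 9.56, 9.56, 10.18, 9.88 and 9.94 in ASO-NSC mice, 10.12, 9.61, 9.56, 9.77 and 9.77 in ASO-Veh mice, 10.29, 9.71, 9.84, 9.34 and 9.82 in WT-NSC mice, and 9.40, 8.42, 10.39, 9.16 and 11.23 in WT-Veh mice. Mouse 62 was the lowest and mouse 67 the highest of all 20, while Atg16l1 stayed between 8.81 and 9.16. Scarna10 (U85), which in human cells directs modification of the spliceosomal U5 RNA, was at 7.47, 7.43, 7.60, 7.43 and 7.45 in ASO-NSC mice, 7.34, 7.63, 7.63, 7.32 and 7.52 in ASO-Veh mice, 7.58, 7.51, 7.43, 7.62 and 7.58 in WT-NSC mice, and 6.97, 6.68, 7.44, 7.02 and 7.71 in WT-Veh mice. The 3 lowest mice were WT-Veh mice 62, 61 and 66, and the difference was 0.38 ± 0.14 (SE, adjusted p = 0.240) for WT-NSC minus WT-Veh and -0.01 ± 0.15 (SE, adjusted p = 0.988) for ASO-NSC minus ASO-Veh. Scarna2, known in human cells as a guide for the spliceosomal U2 RNA, lies in no other gene and was lowest in WT-Veh mouse 62 (8.497) and highest in WT-Veh mouse 67 (9.49), with all other mice between 8.85 and 9.37. Scarna17 and Scarna8 did not follow, with ranges of 9.77 to 10.51 and 5.10 to 6.03 and values of 5.49, 5.55, 5.55, 5.62 and 5.58 for Scarna8 in WT-Veh mice.

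The effect of the stem cells was examined within each genotype, and that of the genotype with and without them, in limma on 19 arrays with the labelled sex in the design. ASO-NSC mouse 59, left out of the study's network as an outlier, was left out here as well, so that ASO-NSC values rest on 4 mice. No RNA of the 78 passed an adjusted p of 0.05 in any of the 8 comparisons. Of all 22180 genes 0.00902% were called for ASO-NSC minus ASO-Veh, 0.433% for WT-NSC minus WT-Veh, 0.00451% for ASO-NSC minus WT-NSC, 0.0135% for ASO-NSC minus WT-Veh, and 0% for ASO-Veh minus WT-Veh, for the difference of the NSC effects and for either pair of litters. A 95% interval reached a median of 0.34 units either side of the estimate for the 78 RNAs in ASO-NSC minus ASO-Veh and 0.32 in WT-NSC minus WT-Veh, with 0.19 and 0.18 for all genes. These intervals, the SEs and the p-values rest on a spread shared by all 4 groups. They therefore carry the wide WT-Veh spread into comparisons without WT-Veh mice, and the narrower spread of other groups into those with them. Snord69 had SDs of 0.048 in ASO-NSC, 0.053 in ASO-Veh and 0.70 in WT-Veh mice (n = 5), with an SE of 0.23 for ASO-NSC minus ASO-Veh.

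In ASO mice the median difference of NSC minus vehicle was -0.03 for the C/D class, with 21 of 47 above 0, and 0.10 for the H/ACA class, with 17 of 26 above 0. Among all genes, 51.2% were above 0. At an unadjusted p under 0.05, 0 of the 78 were higher and 3 were lower, all C/D (Snord88a, Snord73a and Snord82), with 5.56% of all genes higher and 3.32% lower. Of the RNAs with the largest statistics in their class, the others were Snord42b (0.20), Snora47 (-0.18), Snora41 (-0.16), Snora69 (0.55) and Snora75 (0.25), with differences at adjusted p-values of 0.564 to 0.644. With litter as a fixed term, Snora47 turned to 0.16 and Snora69 to -0.37, and the medians were -0.16 (C/D) and -0.12 (H/ACA). Without ASO-Veh mouse 46 the C/D median was 0.08 and the H/ACA median 0.19, and without ASO-NSC mouse 56 the H/ACA median was 0.03. In WT mice the median was 0.02 for the C/D class, with 27 of 47 above 0, and 0.13 for the H/ACA class, with 20 of 26 above 0. Over all genes it was 0.002, with 50.4% above 0. Here 9 RNAs were higher and 8 lower at an unadjusted p under 0.05, with 7.04% and 6.48% of all genes. Leading the higher ones by the size of the statistic were Snora15, Snora30 (0.31 ± 0.11 SE, adjusted p = 0.225), Scarna10, Snord82 (0.31) and Snord49b (0.71), and leading the lower ones Snord88a, Snora61 (-0.28 ± 0.09 SE, adjusted p = 0.169), Snord73a (-0.27), Snord8 (-0.21) and Snora47 (-0.20). The term for litter turned the sign of Snord82 (-0.0323), Snord73a (0.0616) and Snora47 (0.26) as well.

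WT-Veh mouse 67 decided part of these values. Without it 3 RNAs passed the threshold for WT-NSC minus WT-Veh, namely Scarna10 at 0.56 ± 0.11 (adjusted p = 0.0286), Snora15 at 1.79 ± 0.39 (adjusted p = 0.0373) and Snord35b at 0.65 ± 0.16 (adjusted p = 0.0493; SE, limma), and the number of all genes called was 277. The median difference was then 0.20 for the C/D and 0.37 for the H/ACA class, and without WT-Veh mouse 66 it was -0.07 and 0.004. Without both mice 62 and 67, an alternative chosen after seeing the data, no RNA was called and the medians were 0.14 and 0.27, and without the 5 arrays whose sex-linked genes differ from the label they were -0.135 and -0.03.

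Genotype was compared among vehicle mice and among NSC mice. For ASO-Veh minus WT-Veh the median was -0.04 in the C/D and 0.14 in the H/ACA class, with 8 RNAs higher and 3 lower at an unadjusted p under 0.05 (2.02% and 2.79% of all genes). Leading by the size of the statistic in their class were Snord49b (0.76), Snord82 (0.33), Snord99 (0.83), Snora74a, Snora15 and Snora23 (0.22), with Snora61 (-0.22) and Snord90 (-0.22) lower in ASO-Veh, all at adjusted p-values of 0.985 or 0.998. Without WT-Veh mouse 67 the medians were 0.13 (C/D) and 0.31 (H/ACA). The H/ACA median was 0.03 without WT-Veh mouse 66, and it turned to -0.012 without the 5 arrays whose sex-linked genes differ from the label. For ASO-NSC minus WT-NSC the medians were -0.08 (C/D) and 0.07 (H/ACA, 0.02 without ASO-NSC mouse 56), with 0 higher and 2 lower at an unadjusted p under 0.05 (1.44% and 1.61% of all genes). These 2 were Snord91a (-0.49), whose groups did not overlap in 5 mice each (0.352% of all genes were lower in this way and 0.361% higher, none of the higher ones among the 78), and Snord82 (-0.28), both at an adjusted p of 1. Snord66 (-0.19), Snord53 (0.17), Snora30 (-0.18), Snora19 (0.20), Snora34 (0.47) and Snora75 (0.20) followed in their classes.

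For ASO-NSC minus WT-Veh, which differ in genotype and treatment and share their samples with the comparisons above, the medians were -0.06 (C/D) and 0.19 (H/ACA), and 23 of 26 H/ACA RNAs were above 0, with 48.6% of all genes. The H/ACA RNAs moved together between mice, so that this count does not hold 26 independent values. Snora15 differed by 1.53 ± 0.46 (SE, adjusted p = 0.213) and Snord88a by -0.40 ± 0.09 (SE, adjusted p = 0.148), and 6 RNAs were higher and 9 lower at an unadjusted p under 0.05 (7.37% and 6.29% of all genes). Snora47, Snord73a and Snord88a were lower in ASO-NSC without overlap of 5 and 5 mice (1.3% of all genes). Lower among the largest statistics were Snora61 (-0.31), Snora47 (-0.27), Snord73a (-0.32), Snord91a (-0.40) and Snord1b (-0.33). With litter as a fixed term Snora15 turned to -0.12, Snora47 to 0.22, Snord91a to 0.13 and Snord73a to 0.00263. The medians were 0.11 (C/D) and 0.32 (H/ACA) without WT-Veh mouse 67 and -0.11 and 0.10 without mouse 66, and without the 5 arrays whose sex-linked genes differ from the label the H/ACA median was -0.03. Whether the stem cells acted differently in ASO than in WT mice was tested as the difference of the NSC effects. The largest statistic was that of Snord82, which was lower in NSC mice by the fit in ASO (-0.29) and higher in WT (0.31), a difference of -0.61 ± 0.18 SE, adjusted p = 0.9998. Snord82 was at 10.31, 10.56, 10.42, 10.60 and 10.77 in ASO-NSC mice, 10.84, 10.67, 10.70, 10.83 and 10.75 in ASO-Veh mice, 10.47, 10.86, 10.73, 10.63 and 11.03 in WT-NSC mice, and 10.78, 10.13, 10.48, 10.15 and 10.65 in WT-Veh mice. WT-Veh mice 62 and 66 were the lowest, and the 4 ASO-NSC mice in the fit lay below all ASO-Veh mice, whereas mouse 59, outside the fit, lay among them. At an unadjusted p under 0.05 the NSC effect was more positive in ASO mice for 2 RNAs (2.2% of all genes) and more negative for 3 (1.43%). Snord47 (-0.65), Snord53 (0.32), Snord90 (0.29), Snora62 (-0.45), Snora30 (-0.29), Snora23 (-0.22) and Snora19 (0.31) followed in their classes, at the same adjusted p.

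**Figure D4:**
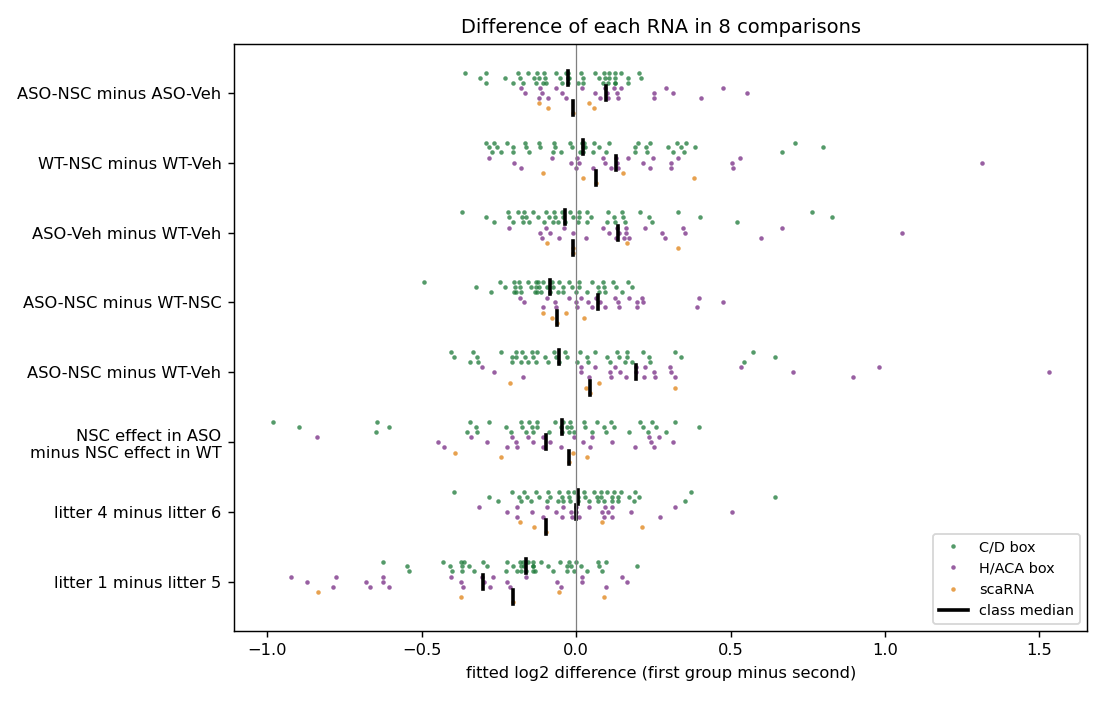
Fitted log2 difference of each of the 78 RNAs in the 8 comparisons, 1 point per RNA coloured by class, with the class median as a black bar; the differences are the first group minus the second. The H/ACA median lies to the right of the C/D median in the first 5 comparisons and both lie left of 0, at -0.30 and -0.16, for litter 1 minus litter 5.

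Litters were compared within treatment, since litters 4 and 6 gave only NSC mice and litters 1 and 5 only vehicle mice. All mice of litter 4 are labelled female and all of litter 6 male, so that litter and labelled sex cannot be told apart there. For litter 4 minus litter 6 the median was 0.005 in the C/D and 0.0002 in the H/ACA class. Snord111 (-0.39 ± 0.14 SE, adjusted p = 0.781), Snord118 (0.37 ± 0.14 SE, adjusted p = 0.789), Snord13 (0.64) and Snord53 (0.19) had the largest statistics, followed among H/ACA RNAs by Snora68 (-0.31), Snora20 (-0.19), Snora44 (0.27) and Snora47 (0.11). At an unadjusted p under 0.05, 2 RNAs were higher (2.92% of all genes) and 1 was lower (2.97%).

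Litter 1 was lower than litter 5 in most RNAs by the fit. The median was -0.16 in the C/D class, with 7 of 47 above 0, and -0.30 in the H/ACA class, with 5 of 26 above 0. Over all genes it was -0.001, with 49.6% above 0. No RNA was higher and 11 were lower at an unadjusted p under 0.05, 8 of 26 H/ACA, 1 of 47 C/D and 2 of 5 Scarna, with 2.34% and 2.1% of all genes, and none passed after adjustment. Snora21, in the ribosomal protein gene Rpl23, had the largest statistic (-0.61 ± 0.16 SE, adjusted p = 0.979). It was at 9.99, 9.96, 9.565 and 9.58 in litter 1 (mice 42, 45, 61 and 62) and at 10.29, 10.47, 9.89 and 10.66 in litter 5 (mice 68, 64, 66 and 67). WT-Veh mouse 66 lay within litter 1, and the other litter 5 mice lay above it. Snora28 (-0.41), Snora74a (-0.63), Snora19 (-0.37), Snord111 (-0.35), Snord22 (-0.43), Snord89 (-0.37) and Snord17 (-0.37) followed in their classes, all at an adjusted p of 0.979. Without WT-Veh mice 62 and 67 the medians were -0.004 (C/D) and -0.09 (H/ACA), and without mouse 67 alone -0.10 and -0.19. Without mouse 66 the C/D median was -0.26. In litter 1, mice 45, 61 and 62 are labelled male but read as female by sex-linked genes, as did mouse 42, and no litter 5 mouse differed from its label. Over the alternatives other than single arrays left out, sex from these genes among them, the medians ran from -0.25 to -0.004 (C/D) and from -0.38 to -0.09 (H/ACA).

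The hosts varied less than the RNAs in them. Of 63 RNAs with a measured host, 57 had the larger SD over the 20 mice, and the median SD was 0.26 for these RNAs and 0.12 for 49 hosts. The part of transcript length or number of probes in this was not tested. The 483 microRNA genes had a median SD of 0.21, with 0.145 for all genes. After subtraction of group means, the correlation of an RNA with its host over the 20 mice had a median of 0.183 and ranged from -0.467 to 0.705 (n = 63 pairs), and between RNAs of one host a median of 0.282 (n = 18 pairs), with 0.283 for the 2985 pairs that share no host. The pairs without a common host ranged from -0.775 to 0.941, so that an r within this range does not by itself mark a shared host. Over all 81 pairs the r of 1 RNA with its host passed an adjusted p of 0.05, that of Snora78 with Snhg9 (r = 0.705, rho = 0.705, permutation p = 0.00052 and 0.00072, adjusted p = 0.0140 and 0.0194, r = 0.642 without the 2 mice farthest in Snhg9, and r = 0.509 with litter means subtracted instead). Between RNAs of one host, Snora73a and Snora73b of Snhg3 had r = 0.978 and rho = 0.953, and Snord49a and Snord49b of 2410006H16Rik had r = 0.813 and rho = 0.878 (permutation p = 1e-05 each, the smallest that the 100000 permutations can give, adjusted p = 0.000405, and r = 0.965 and 0.792 without the 2 farthest mice, 0.982 and 0.748 with litter means subtracted). Snord49a and Snord65 passed by r (0.678, adjusted p = 0.0221) but not by rho (0.51, adjusted p = 0.270), and r was 0.359 without the 2 farthest mice.

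Snhg12 shows the range within one host. Its own level stayed between 6.11 and 6.53. Of its RNAs Snora16a had an SD of 0.64, Snord99 of 0.65, Snora44 of 0.27 and Snora61 of 0.17. Snora16a was at 9.83, 9.60, 10.06, 8.94 and 9.05 in ASO-NSC mice, 9.17, 9.09, 9.98, 8.89 and 9.04 in ASO-Veh mice, 9.38, 8.95, 10.26, 8.67 and 8.95 in WT-NSC mice, and 8.27, 8.03, 9.88, 8.74 and 10.29 in WT-Veh mice. It was low in WT-Veh mice 61 and 62 and high in WT-Veh mouse 67, ASO-NSC mouse 56 and WT-NSC mouse 74. Snora61 was at 6.90, 6.97, 6.85, 6.61 and 6.83 in ASO-NSC mice, 6.90, 6.98, 7.06, 6.64 and 7.03 in ASO-Veh mice, 6.81, 6.82, 6.90, 6.83 and 6.93 in WT-NSC mice, and 7.17, 7.20, 6.92, 7.21 and 7.19 in WT-Veh mice. In contrast to Snora16a it was highest in WT-Veh mice 66, 62, 67 and 61, with mouse 64 lower.

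**Figure D5:**
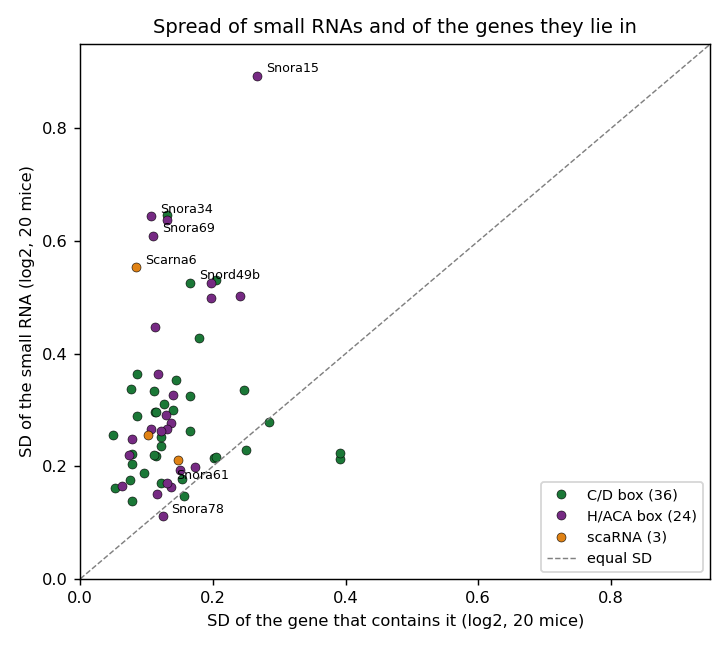
SD over the 20 mice of each small RNA (vertical) against that of the gene it lies in (horizontal), in log2 units, for the 63 RNAs with a measured host, with a dashed line of equal SD. All but 6 points lie above the line, Snora15 farthest, at 0.89 with 0.27 for Cct6a.

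The messages of the proteins that carry the RNAs were measured as well, and the proteins themselves were not. Of the C/D protein genes Nop56, Nop58, Snu13 and Rrp9, which encodes a protein of the U3 particle, were measured, and of the H/ACA protein genes all 4. None of them passed the threshold in any comparison, and their medians lay between -0.08 and 0.04 for C/D and between -0.13 and 0.08 for H/ACA. None of 16 assembly and trafficking genes passed, with medians of -0.05 to 0.07. The mean level of the H/ACA protein genes ran from 7.99 to 8.23 in ASO-NSC, 8.02 to 8.14 in ASO-Veh, 8.09 to 8.27 in WT-NSC and 7.95 to 8.23 in WT-Veh mice. Of known hosts listed whether or not a measured RNA lies in them, 1 of 54 coding genes passed, in WT-NSC minus WT-Veh (with 0.433% of all genes), and 0 of 19 non-coding genes in any comparison. It was Eef1b2, a translation elongation factor gene, at 0.31 ± 0.06 (SE, adjusted p = 0.0235).

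Of 10 other short structured RNAs, outside the symbol rule, several were low in the same WT-Veh mice. Rnu3a, a copy of the U3 RNA that opens the processing of 18S rRNA, was at 4.27, 3.94, 5.83, 4.78 and 6.45 in WT-Veh mice, Rny3, a Y RNA bound by the Ro protein, at 9.88, 8.79, 9.45, 9.496 and 10.58, and Rpph1, the RNA of ribonuclease P, at 11.05, 10.57, 11.46, 10.79 and 11.74. In the other 15 mice Rnu3a was between 4.495 and 6.33, Rny3 between 9.99 and 10.73 and Rpph1 between 11.31 and 11.78. Rnu3a in WT-Veh mouse 66 thus lay within these 15, and Rny3 was low in WT-Veh mouse 64 as well. Rnu11 did not follow, with 9.37 in WT-Veh mouse 66 and 9.16 in WT-Veh mouse 67. Rn7sk, the 7SK RNA that restrains transcription elongation, stayed between 13.13 and 13.39 in all 20 mice. The median deviation of the 10 RNAs was -0.30, -0.52, -0.02, -0.46 and 0.25 in WT-Veh mice, and that of 483 microRNA genes was 0.08, 0.08, 0.06, 0.12 and -0.03.

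Marker levels in the single WT-Veh mice were as follows. RNA integrity numbers of WT-Veh mice 61, 62, 64, 66 and 67 were 9.4, 9.2, 9.4, 9.4 and 9.7. The mean of 4 measured choroid plexus markers of 5 listed (Ttr the brightest and Folr1 the dimmest) ran from 7.49 to 9.28 in ASO-NSC, 7.47 to 8.73 in ASO-Veh, 7.72 to 9.15 in WT-NSC and 7.36 to 9.30 in WT-Veh mice, and in WT-Veh mice it stood -0.86, -0.93, 1.01, -0.83 and 0.40 from its 20-mouse mean, low in the 3 mice with low snoRNAs. Oligodendrocyte markers stood -0.14, -0.12, 0.05, -0.13 and 0.06 from their mean and astrocyte markers -0.20, -0.29, -0.06, -0.23 and -0.03, both split between the mice in the same way. The mean of 4 measured cortical markers of 5 stood -0.76, 0.90, -0.17, -1.14 and 0.33 from its mean in the same mice, microglia markers -0.17, -0.04, -0.06, -0.12 and 0.01, and stem or progenitor markers -0.07, -0.34, 0.03, -0.155 and -0.07. Spiny neuron markers stood -0.04, 0.255, -0.08, 0.16 and 0.08 from their mean, highest in mice 62 and 66, and pan-neuronal markers -0.03, -0.004, 0.04, -0.175 and -0.04. The median of the choroid plexus mean was 7.54 in ASO-Veh and 7.46 in WT-Veh mice, and 9.045 in ASO-NSC and 8.88 in WT-NSC mice. In ASO-Veh mice the median deviation of all the RNAs from their own means ran from -0.049 to 0.216. The part of any of these markers in the snoRNA values was not tested. No measured marker averaged under 5, and none of the 5 listed blood genes was analysed here.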

How the data were processed

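One mouse was hybridised per array, from striatal total RNA. The values were log2 expression levels as deposited. Per the methods, the authors made them from the scanned arrays by robust multiarray analysis (RMA) in the Bioconductor package oligo. RMA corrects background, quantile-normalizes across arrays and summarizes the probes of a transcript cluster. The genome build of the probe annotation is not given in the sources used here. Array data carry no counts, so that the number of mice limits the precision.

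Rows with a single gene symbol were kept, 1 per gene (largest interquartile range), and linear models were fitted to all 22180 genes in limma 3.58.1 (R 4.3.3), two-sided, with Benjamini-Hochberg adjustment and a threshold of 0.05. The group fit held 19 arrays (without ASO-NSC mouse 59) with a term for each group and for labelled sex, and the litter fit had terms for group and litter. Within a fit, the spread of a gene was estimated over all groups together. The fits were tested on simulated data. Correlations of snoRNAs with hosts used group-centred values and 100000 permutations. Hosts and start sites came from RefSeq, GRCm38.p6. Named RNAs were, in the C/D and H/ACA class each, the 4 with the largest absolute statistic per comparison and the 5 with the highest level or largest SD, all Scarna genes and the RNAs that process rRNA; a few others were chosen after their values were seen. The members and lists were chosen with earlier results of these data known. Alternatives were each array left out, ASO-NSC mouse 59 kept, other covariates, litter as a block, and other row choices and filters.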

Additional observations from a re-analysis of the deposited data

Results flagged for a closer look

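Among 200 checks of 1 group of 5 mice each, over the named RNAs and the class medians, 14 had a mouse far from the other 4 of its group, where chance alone flags about 1 in 20 groups. ASO-Veh mouse 46 was far above its group for Snora16a (9.98, next mouse 9.172), Snord17 (8.556, next 8.0) and Snord89 (11.58, next 11.343). WT-Veh mouse 67 was far above its group for Snord104 (12.034, next 10.001) and Snord35b (8.653, next 6.467), and WT-Veh mouse 64 was far below it for Snora61 (6.916, next 7.168). ASO-NSC mouse 56 was high for Snora21 (10.657, next 10.234) and Scarna10 (7.599, next 7.465). ASO-NSC mouse 73 was low for Snord88a (5.811, next 6.234) and for Scarna2 (8.944, next 9.109), and since Scarna2 lies in the middle of the 5 Scarna genes, the Scarna median of that mouse was low by the same value (8.944). ASO-Veh mouse 47 was low for Snora73a (7.667, next 8.176), ASO-Veh mouse 68 was low for Snord42b (7.993, next 8.18), and WT-NSC mouse 74 was high for Scarna8 (6.034, next 5.617). All values are log2 levels.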

How the results depend on the processing

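No RNA passed the threshold in 7 of the 8 comparisons under any alternative tried. For WT-NSC minus WT-Veh the number that passed ranged from 0 to 3 with each mouse left out, and it was 3 only without WT-Veh mouse 67. With litter as a fixed block, which rests on litter 3 and so on 1 NSC mouse, several named differences changed sign. For ASO-NSC minus ASO-Veh these were Snora47 (0.16) and Snora69 (-0.37), for WT-NSC minus WT-Veh Snord73a (0.0616), Snord82 (-0.0323), Snora15 (-0.15) and Snora47 (0.26), and for ASO-NSC minus WT-Veh Snord73a (0.00263), Snord91a (0.13), Snora15 (-0.12) and Snora47 (0.22). Snora20 changed sign to 0.0674 for litter 4 minus litter 6 with labelled sex as a further term. The cause was not tested. The 64 differences recomputed, 4 per class and comparison, otherwise kept their sign, and their side of the threshold except Snora15 without WT-Veh mouse 67, where Scarna10 and Snord35b, outside these 64, also passed. Class medians were less stable. The C/D median changed sign under at least 1 alternative in every comparison except ASO-NSC minus WT-NSC and litter 1 minus litter 5, and so did the H/ACA median. No paired analysis was possible because the replicate numbers are those of single mice and no number occurs in 2 groups. Signal over background limits the dim RNAs, 10 of which averaged under 5.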
